A study of Danio rerio with 7 samples.

Results

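The cytosolic ribosomal protein genes encode the proteins of the ribosome that translates nuclear messenger RNA. They were chosen by name: every annotated zebrafish gene whose symbol starts with rpl or rps and a number, with rplp0 to rplp2 or with rpsa, without the rps6k kinases. The rule matched 85 annotated genes, and 78 of them had a named probe on the array, out of 11484 genes named there. By their symbols, 44 of the 78 were counted with the large subunit and 34 with the small subunit. Among the 44 is rpl7l1, whose product in human cells takes part in large subunit assembly. They were read by 106 of the 43603 distinct probes. Each gene is represented by its probe with the highest mean Cy5 signal. The genes rpl17, rpl26, rpl32, rpl36a, rps11b, rps19bp1 and rps27l had no named probe here. Of these, rps19bp1 encodes a partner of a ribosomal protein and matched only by its symbol.

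Each ribosome carries 1 copy of nearly every one of these proteins, and their messenger RNAs are among the most abundant of a cell. Most of these mRNAs begin with a pyrimidine tract through which growth signalling adjusts their translation as a group. Some genes have a paralogue, a duplicate copy that can be used in another tissue. Growing oocytes of fish and frogs stockpile ribosomes for the embryo, and in zebrafish the loss of 1 copy of several ribosomal protein genes predisposes to tumours.

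RNA came from whole-animal homogenates of 4 female and 3 male adult zebrafish, all full siblings of 1 hybrid strain labelled AB x unknown. Per the series design, these fish served to relate copy number variants to expression, and genotypes were not analysed here. Every fish was labelled with Cy5 and hybridised on its own array against a common reference made from whole animals of the same hybrid strain, labelled with Cy3. The females were numbered 4, 7, 8 and 9, and the males 5, 8 and 9. No treatment, genetic alteration or age beyond adult is given. The growth protocol speaks of laboratory animals and of native fish from Bangladesh, without saying which parent the unknown one was. RNA was extracted with Trizol, while the labelling protocol describes heat-denatured DNA, so the labelling of the RNA is not given in the sources used here. No array had its dyes swapped, and a dye effect is part of every ratio to the reference. In whole-body RNA, fewer cells of a type and less RNA per cell cannot be told apart.

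The library labelled male 5 went against its label. The median log2 ratio over 13 egg coat and oocyte genes was between -0.55 and 0.49 in the 4 females and 0.55 in the library labelled male 5. It was -4.71 in male 8 and -4.31 in male 9. Sex differences are therefore given with all 7 fish, and with the females set against males 8 and 9 alone. The headers place the arrays in 3 scan sessions. Session 1 held females 7 and 9 and male 9, session 2 held male 8, and session 3 held females 4 and 8 and the library labelled male 5. Between 29.8% and 65.3% of probes were well above background in Cy5, with the 3 arrays of session 3 lowest. Precision is limited by the number of arrays, and p-values measure the spread between these fish.

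The ribosomal protein probes lay at the bright end of the arrays. By mean signal, 75 of the 78 members were among the brightest 10% of tested probes, 72 among the brightest 5% and 51 among the brightest 1%. All 78 were tested, and for 75 the Cy5 spot of every array was well above background. The other members were rpl37 with 6 such arrays, rps8b with 5 and rpl31 with 4. These counts are partly set by the choice of each gene's brightest probe. That choice was made among several probes for 23 members, while 55 had only 1 probe. The probes of rpl31 and rpl36 that were not chosen were too dim to be tested. Saturated Cy5 spots touched 35 members in female 7, 9 in female 9, 1 in male 9 and none in the other fish.

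As log2 ratios of fish over reference with loess over all probes, most members were above 0. The median over the 78 members was 1.05, 0.48, 0.71 and 1.04 in females 4, 7, 8 and 9. It was 0.55 in the library labelled male 5, 0.88 in male 8 and 0.99 in male 9. The sexes overlapped, with female 7 lowest and female 4 highest. These levels depended on the scaling. With saturated spots left out female 7 had 0.64 and the library labelled male 5 was lowest at 0.55. With each array only centred on its median, the members' median was -0.26, 1.38, -0.90 and 0.48 in females 4, 7, 8 and 9. It was then -0.76 in the library labelled male 5, -0.02 in male 8 and -0.92 in male 9. Female 7 was thus highest under that scaling, and 5 of the 7 fish were below 0. With the scanner software's processed signals the medians lay between 0.17 and 0.57 in the females, and were 0.00 in the library labelled male 5, 0.29 in male 8 and -0.25 in male 9. With loess over all probes, the mean over fish was above 0 for 71 members and below 0 for 7, while 57.6% of all tested probes had a mean above 0. In every fish measured, 53 members were above 0 and rpl7l1 alone was below 0.

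Large subunit members had the higher median in 6 fish. The large minus small difference was 0.20, 0.01, 0.35 and 0.02 in females 4, 7, 8 and 9. It was 0.21 in the library labelled male 5, 0.32 in male 8 and -0.06 in male 9. The differences were all small beside the spread among members, whose SD lay between 0.42 in female 9 and 1.12 in male 8. With loess over all probes, the difference was at least 0.20 in sessions 2 and 3 and at most 0.02 in session 1. With processed signals it lay between -0.01 and 0.03 in session 3 and between 0.02 and 0.06 in session 1. Male 8 of session 2 then had 0.34.

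**Figure D1:**
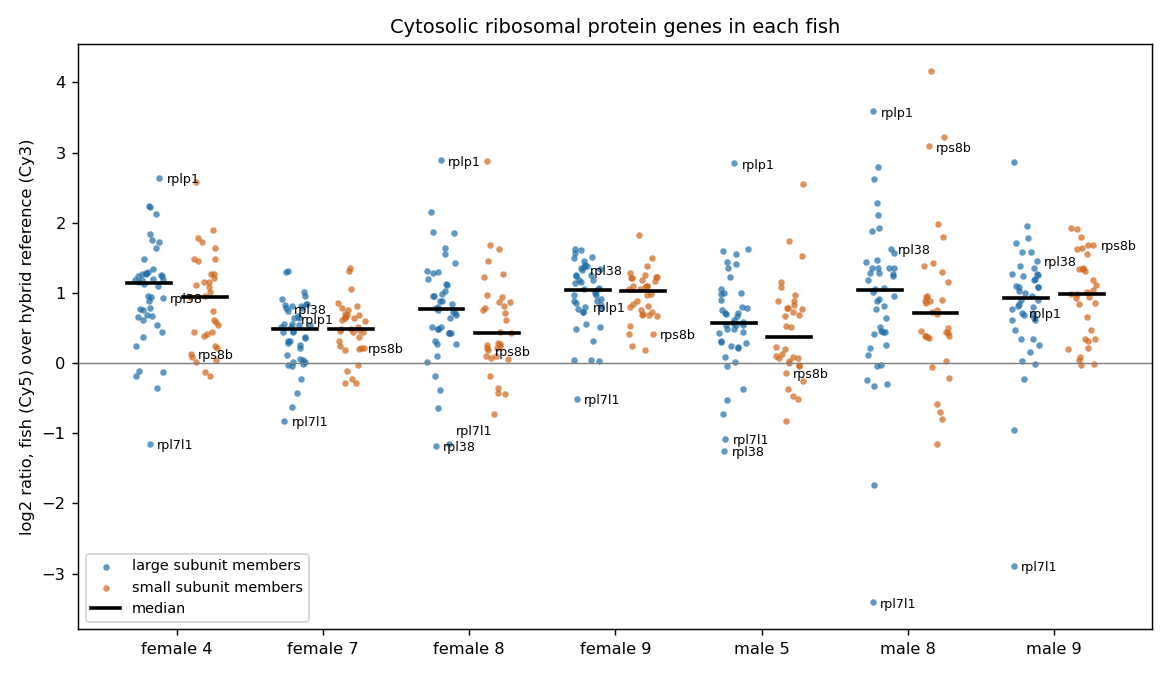
Log2 ratio of fish (Cy5) over the hybrid reference (Cy3) on the vertical axis for each of the 78 ribosomal protein genes, by fish, females left of males. Each point is 1 gene, blue for the large and orange for the small subunit, and black bars are medians; rpl7l1 lies at -3.41 in male 8 and -2.89 in male 9, away from all other members.

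Set against all 3 fish labelled male, no ribosomal protein gene passed the test. Of the 78 members 0 had an adjusted p under 0.05 (limma, Benjamini-Hochberg over 22705 probes), and the background was also 0% of tested probes, in both directions. At an unadjusted p under 0.05 there were 2 members, rpl7l1 and rpl19, while 6.72% of tested probes reached it. The median difference, females minus males, was -0.01 over the members and -0.02 over all tested probes. All 4 females were above all 3 males for 1 member, rpl19, and below them for 0 members. The background shares were 1.92% above and 1.78% below.

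Without the library labelled male 5, 2 of the 78 members passed, or 2.56%, against 25.4% of all tested probes. The rpl7 paralogue rpl7l1 was higher in females and the rps8a paralogue rps8b was lower. The background was 13.2% of probes higher and 12.1% lower in females. At an unadjusted p under 0.05 there were 10 members, against 38.7% of tested probes. The median difference, females minus males 8 and 9, was -0.13 over the members and -0.05 over all tested probes. By subunit it was -0.17 over the large and -0.08 over the small subunit members. For 58 of the 78 members the difference lay within 0.5 of 0 on the log2 scale, a larger share than the 54.7% of tested probes.

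All 4 females were above both males for 4 members, namely rpl7l1, rpl19, rpl23 and rps7, against a background of 23.6% of probes. They were below both males for 9 members, against a background of 25.2%. Among these 9 were rps8b, rplp2, rpl38, rps2, rpl5a, rps27.2, rpl18 and rpl34. Members called or fully separated were thus a smaller share than of all tested probes. That share depended on the scaling of the arrays.

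**Figure D2:**
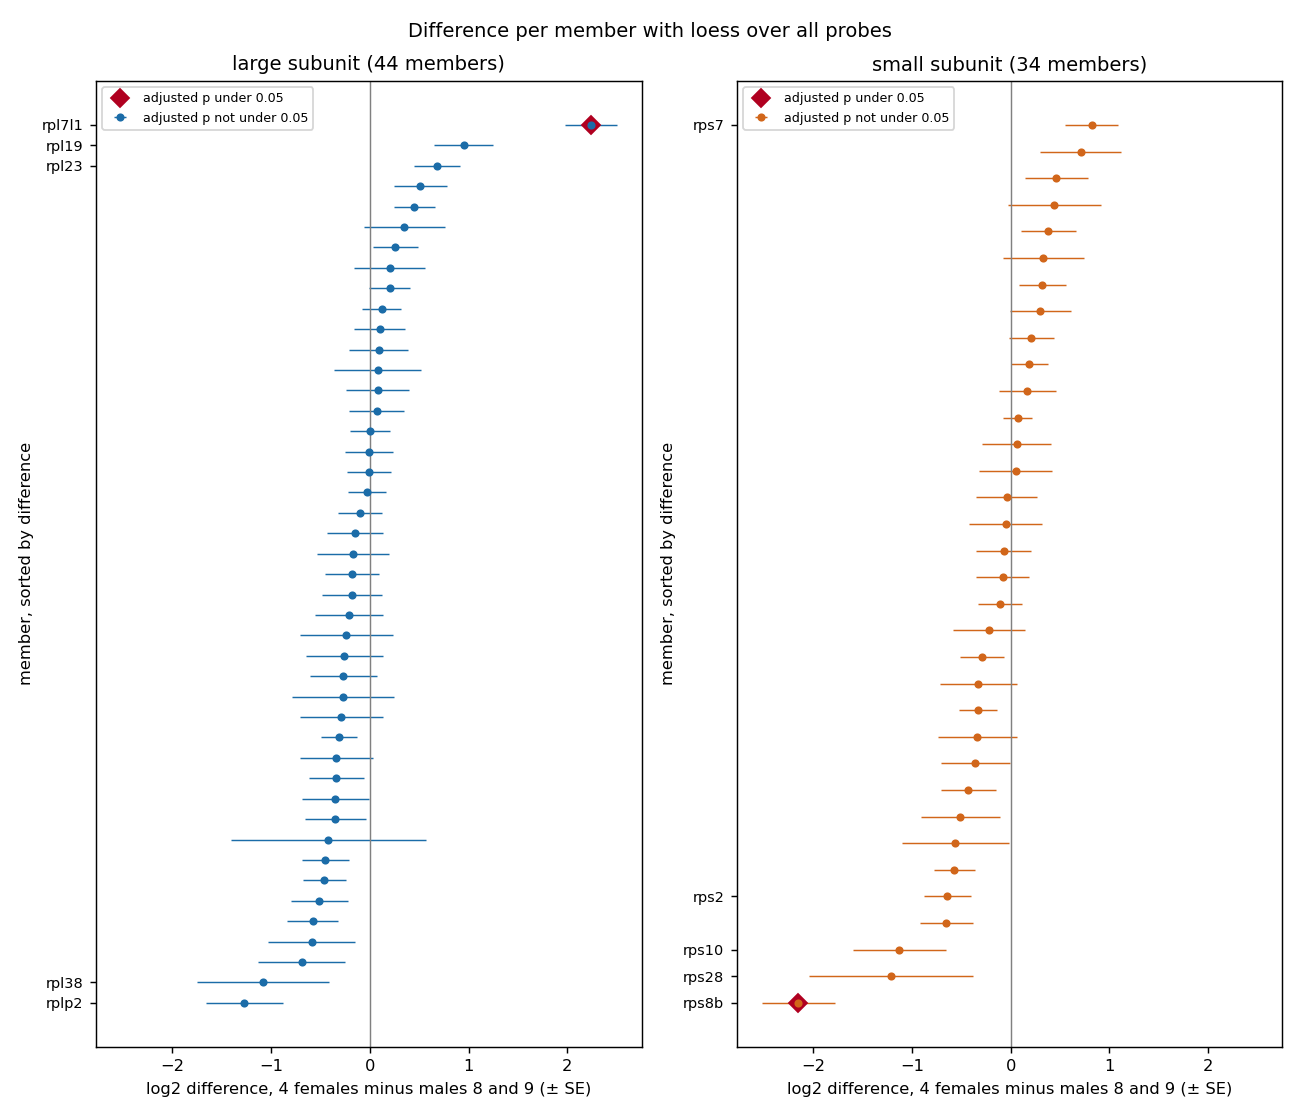
Log2 difference, 4 females minus males 8 and 9, for the 44 large subunit members (left panel) and the 34 small subunit members (right panel), sorted by value, with the names of 10 members. Bars are ± SE from limma and red diamonds mark an adjusted p under 0.05; rpl7l1 at 2.24 and rps8b at -2.15 lie apart from the others.

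The stalk of the large subunit, which recruits elongation factors, is built from rplp0, rplp1 and rplp2 on a base formed with rpl12. The acidic stalk protein gene rplp2 had log2 ratios of 1.75, 0.67, 2.16 and 1.62 in females 4, 7, 8 and 9. It had 1.36 in the library labelled male 5, 2.79 in male 8 and 2.86 in male 9. The highest values were those of males 8 and 9, and the library labelled male 5 was within the female range. The difference without that library was -1.27 ± 0.39 (SE), which did not pass (adjusted p = 0.0581, limma). Its spot was saturated in Cy5 on 3 arrays, and with saturated spots left out the difference was -0.83 (adjusted p = 0.156).

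The other stalk genes did not pass. The anchor gene rplp0 had a difference of 0.20 and the base gene rpl12 one of -0.15. The partner gene rplp1 had 1 of the widest spreads of all members, which followed the scan sessions. Its difference was -0.42 ± 0.99 (SE).

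The genes rpl5a, rpl5b and rpl11 encode the proteins that carry 5S ribosomal RNA into the large subunit. For rpl5a the log2 ratios were 1.34, 1.32, 0.84 and 1.57 in females 4, 7, 8 and 9, against 0.54 in the library labelled male 5, 2.11 in male 8 and 1.58 in male 9. Both of these males lay above the females, although male 9 was next to female 9. The difference without the library labelled male 5 was -0.58 (adjusted p = 0.153). It was -0.17 for rpl5b and 0.07 for rpl11, whose groups overlapped.

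Around the exit tunnel, through which the new chain leaves, rpl39 had a difference of 0.51, rpl4 of 0.12 and rpl35 of 0.09. Near the peptidyl transferase centre, where peptide bonds form, the differences were 0.26 for rpl10, -0.01 for rpl8 and -0.35 for rpl3. The groups overlapped in all of these genes and none passed. The gene rpl4 had 4 probes that did not move alike: the chosen, brightest one had 0.12, and the others had -0.71, -0.87 and -0.92 (adjusted p between 0.0893 and 0.679).

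On the face of the large subunit, rpl19 helps to bridge to the small subunit. Read by its chosen probe, it had the lowest mean over the fish after rpl7l1. Its log2 ratios were -0.36, -0.62, -0.64 and 0.04 in females 4, 7, 8 and 9. They were -0.73 in the library labelled male 5, -1.74 in male 8 and -0.95 in male 9. With this probe all females were above all 3 fish labelled male. The difference from males 8 and 9 was 0.95 ± 0.30 (SE) with an adjusted p of 0.0591, and from all 3 it was 0.75 with an adjusted p of 0.539 (limma). The other rpl19 probe had 0.58, 0.12, 0.64 and 0.32 in females 4, 7, 8 and 9. It had 0.37 in the library labelled male 5, -0.22 in male 8 and -0.17 in male 9. There the library labelled male 5 was among the females. The difference of that probe from males 8 and 9 was 0.61 (adjusted p = 0.0639, limma). The chosen rpl19 probe passed with processed signals (adjusted p = 0.0164, higher in females) and without background correction, at 1.15 (adjusted p = 0.0292). It did not pass with ribosomal protein probes given weight 0 in loess, at 0.13 (adjusted p = 0.762, limma). Nor did it pass in the Cy5 channel alone, at 0.76 (adjusted p = 0.151). With scan session as a block the difference was 0.66.

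The bridge protein gene rpl23 had 0.75, -0.04, 0.43 and 0.48 in females 4, 7, 8 and 9, against 0.31 in the library labelled male 5, -0.33 in male 8 and -0.23 in male 9. The females were above males 8 and 9, and the library labelled male 5 was among the females. The difference was 0.68 (adjusted p = 0.0773, limma). Its spot was saturated on 1 array, that of female 7. With saturated spots left out the difference was 0.83 and passed (adjusted p = 0.0249). With ribosomal protein probes given weight 0 in loess it was -0.14 (adjusted p = 0.697), and in the Cy5 channel alone 0.42 (adjusted p = 0.446). At the other end of the large subunit, after rplp2 and rpl38, came rpl28 with a difference of -0.69 (adjusted p = 0.297).

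With all 7 fish, the widest spread of all members was that of rpl38, which in mice is needed for patterning of the axial skeleton. Its log2 ratios were 0.93, 0.78, -1.18 and 1.33 in females 4, 7, 8 and 9, against -1.25 in the library labelled male 5, 1.63 in male 8 and 1.46 in male 9. The difference from males 8 and 9 was -1.08 ± 0.67 (SE; adjusted p = 0.29, limma). Female 8 and the library labelled male 5 were low and all other fish were at 0.78 or above. Both low arrays belong to session 3, and so does female 4 at 0.93. The Cy5 signal of rpl38 was 15974 in female 8 and 14480 in the library labelled male 5, against 66622 in female 4 and 158209 or more in the 4 other fish. The Cy3 signal in session 3 lay between 51884 and 68041, so these 2 arrays stood apart in the fish channel. Only 1 probe reads this gene, and the SD within sex was 1.34, or 0.97 without the library labelled male 5.

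Small subunit members line the path of the messenger RNA. In the decoding site and channel, rps2 had 0.08, 0.68, 0.43 and 0.82 in females 4, 7, 8 and 9, against 0.07 in the library labelled male 5, 1.30 in male 8 and 0.99 in male 9. The females were all below males 8 and 9, with a difference of -0.64 (adjusted p = 0.103). The differences of the neighbours were -0.29 for rps15, -0.07 for rps3 and 0.19 for rps23, with overlapping groups.

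On the platform, where the messenger leaves, the difference was -0.34 for rps14 and 0.17 for rps26, with overlapping groups.

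The S6 kinase target gene rps6 was the steadiest of all members. Its log2 ratios were 0.04, 0.21, 0.10 and 0.19 in females 4, 7, 8 and 9, against -0.25 in the library labelled male 5, -0.06 in male 8 and 0.20 in male 9. The SD within sex was 0.16. The 2 next steadiest were rpl31, whose probe was dim, with 0.19 and rps23 with 0.20. The ubiquitin fusion gene rps27a had a difference of -0.33, and rpsa, also known as the laminin receptor gene, one of -0.36, with adjusted p of 0.578 and 0.493 (limma).

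The gene rps7, whose product also serves in small subunit assembly, had the largest positive difference of the small subunit. Its log2 ratios were 1.73, 0.76, 1.23 and 1.23 in females 4, 7, 8 and 9, against 1.16 in the library labelled male 5, 0.36 in male 8 and 0.47 in male 9. With the chosen probe all females were above males 8 and 9, while the library labelled male 5 was among the females. The difference was 0.82 (adjusted p = 0.0686, limma), and the gene's other probes gave 0.67 and 0.12. The groups overlapped with the last of these probes. It had 0.79, 0.23, 0.31 and 0.78 in females 4, 7, 8 and 9, against 0.43 in male 8 and 0.39 in male 9. Without female 7 the rps7 difference was 0.98 and passed (adjusted p = 0.0358). With ribosomal protein probes given weight 0 in loess the rps7 difference was 0.11 (adjusted p = 0.795, limma). In the Cy5 channel alone it was 0.64 (adjusted p = 0.223). The difference was 0.46 for rps20, and at the other end it was -1.21 for rps28 and -1.13 for rps10, none of which passed.

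Among the 78 members were 7 paralogue pairs. The product of rpl7l1 resembles that of rpl7 and in human cells takes part in large subunit assembly. Its log2 ratios were -1.15, -0.82, -1.15 and -0.51 in females 4, 7, 8 and 9. They were -1.08 in the library labelled male 5, -3.41 in male 8 and -2.89 in male 9. The library labelled male 5 was within the female range, and males 8 and 9 were far below every other fish.

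The female mean of rpl7l1 was -0.91 ± 0.31 (SD, n = 4) and the mean of males 8 and 9 was -3.15. The difference was 2.24 ± 0.26 (SE; adjusted p = 0.00276, limma). With all 3 fish labelled male it was 1.55 ± 0.54 (adjusted p = 0.539). Within scan session 1, females 7 and 9 against male 9, it was 2.23. The gap lay in the fish channel: the Cy5 signal was between 18507 and 23924 in the females, 17679 in the library labelled male 5, and 3410 and 3346 in males 8 and 9. The Cy3 signal was between 32728 and 44352 on all arrays. The gene's other probe had -0.83, -0.76, -0.71 and -0.15 in the females, against -0.36 in the library labelled male 5, -2.05 in male 8 and -1.04 in male 9. Males 8 and 9 were lowest there too, with a smaller difference of 0.93 ± 0.33 (adjusted p = 0.0857).

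The partner rpl7 did not share this pattern. It had 1.26, -0.01, 1.03 and 1.00 in females 4, 7, 8 and 9, against 0.57 in the library labelled male 5, 0.41 in male 8 and 1.71 in male 9. The groups overlapped and the difference from males 8 and 9 was -0.24 (adjusted p = 0.744, limma).

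The second called member, rps8b, is a copy of rps8a, which encodes a small subunit protein. It had log2 ratios of 0.13, 0.22, 0.18 and 0.42 in females 4, 7, 8 and 9, against -0.14 in the library labelled male 5, 3.09 in male 8 and 1.69 in male 9. Only males 8 and 9 stood well above 0. The female mean was 0.24 ± 0.13 (SD, n = 4) and the mean of males 8 and 9 was 2.39. The difference was -2.15 ± 0.37 (SE; adjusted p = 0.00878, limma), and with all 3 fish labelled male it was -1.31 (adjusted p = 0.539).

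Unlike nearly all other members, rps8b was dim in the females. Its Cy5 signal was 136, 690, 307 and 694 in females 4, 7, 8 and 9, against 39 in the library labelled male 5, 9405 in male 8 and 3017 in male 9. In female 4 and in the library labelled male 5 it was not well above background. The Cy3 signal also varied, between 56.3 and 616, with the 3 lowest values in session 3. Within session 1 the difference was -1.37.

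The partner rps8a had 0.42, -0.29, 0.26 and 0.69 in females 4, 7, 8 and 9, against 0.00 in the library labelled male 5, -0.21 in male 8 and -0.01 in male 9. The groups overlapped, with a difference of 0.38 (adjusted p = 0.367). Its other probes gave 0.21 and -0.04.

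The within-fish difference between paralogues was also tested over all 7 fish. For 4 against 3 fish the smallest p that the exact permutation test can give is 0.0571. The first minus the second gene differed between the 4 females and the 3 fish labelled male by 1.63 for rpl7l1 and rpl7 and by -1.65 for rps8b and rps8a (exact permutation test, two-sided, p = 0.171 for each). For rplp2b and rplp2 it was 0.58 (exact p = 0.229) and for rps27.2 and rps27.1 it was -0.55 (exact p = 0.286). For rps26l and rps26, rpl22l1 and rpl22, and rpl5b and rpl5a it was -0.21, -0.17 and 0.11 (exact p = 0.571, 0.686 and 0.8). After adjustment over the 7 pairs all p were 0.5 or 0.8.

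In some pairs the within-fish difference also varied among fish of the same sex. The log2 ratio of rpl5b minus that of rpl5a was -0.79, -0.87, 0.72 and -0.72 in females 4, 7, 8 and 9, against 0.07 in the library labelled male 5, -0.75 in male 8 and -0.89 in male 9. Female 8 alone was clearly above 0 and the library labelled male 5 was near 0, while the other 5 fish lay between -0.89 and -0.72. For rps27.2 minus rps27.1 the values were -0.05, -0.58, 0.10 and -0.84 in females 4, 7, 8 and 9. They were 0.29 in the library labelled male 5, 0.94 in male 8 and -0.60 in male 9. The 3 fish of session 1 were lowest in that pair. The Cy3 signal of session 1 over that of the other sessions was 1.64 for rps27.2 and 0.986 for rps27.1. In Cy5 it was 1.4 and 1.54. The part of the reference in this split was not tested.

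**Figure D3:**
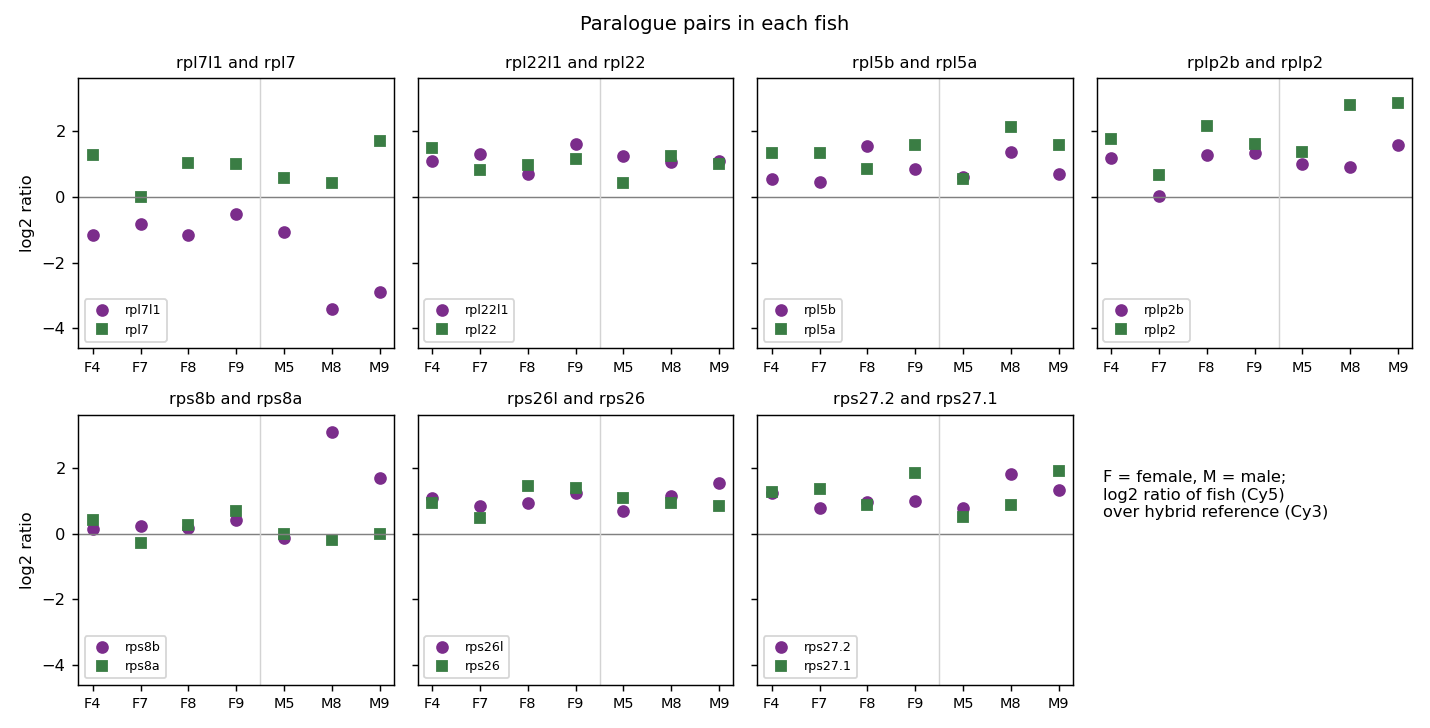
Log2 ratio of fish (Cy5) over the hybrid reference (Cy3) for the 7 paralogue pairs, by fish, females left of the grey line. In males 8 and 9 the purple rpl7l1 points lie at -3.41 and -2.89 and the purple rps8b points lie at 3.09 and 1.69, while the green partners rpl7 and rps8a stay between -0.21 and 1.71.

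Several genes could be checked with more than 1 probe. Of the 21 members with several tested probes, 15 had all their probes on the same side of 0 in the comparison with males 8 and 9. The sizes were shifted: in every one of these genes but rps14 the other tested probes gave a lower difference than the chosen, brightest one. For rpl8 it was -1.16 against -0.01, and for rpl10 -0.31 against 0.26. With the mean over each gene's tested probes, the median difference over the 78 members was -0.18, beside -0.13 with the chosen probes. Each of the 21 members had at least 1 other tested probe. Of all tested probes 25.4% passed, and 12.1% passed as lower in females. Among the chosen probes 2 of the 78 passed. In 4 genes a probe other than the chosen one passed, each lower in females. The largest was the second probe of rps24, a small subunit gene whose messenger has alternatively spliced ends in mammals. That probe had -0.07, 0.31, 0.11 and 0.28 in females 4, 7, 8 and 9, against 0.01 in the library labelled male 5, 2.52 in male 8 and 1.73 in male 9. Only males 8 and 9 were far from 0.

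The second rps24 probe gave -1.97 ± 0.25 (SE; adjusted p = 0.00374), while the chosen rps24 probe gave 0.32 (adjusted p = 0.382, limma). It was well above background on 4 arrays. The other such probes were the second ones of rpl18 with -0.89, rps26l with -0.78 and rps27.2 with -0.75 (adjusted p = 0.031, 0.0321 and 0.0477). Their chosen probes had -0.46, -0.33 and -0.57, all in the same direction. These were named after their values were seen.

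The reference channel was not the same in all sessions for some members. The stalk gene rplp1 had log2 ratios of 2.64, 0.64, 2.89 and 0.80 in females 4, 7, 8 and 9, against 2.85 in the library labelled male 5, 3.59 in male 8 and 0.72 in male 9. The 3 fish of session 1 lay between 0.64 and 0.80 and the 4 others at 2.64 or above, across both sexes. Its Cy3 signal was 42953, 31604 and 41498 in session 1 and between 4190 and 5840 elsewhere. That is a ratio of 7.79 between the session means, against 1.33 in the Cy5 channel, so the split lay in the reference.

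The small subunit gene rps28 behaved alike. It had 2.58, 1.06, 2.88 and 0.84 in females 4, 7, 8 and 9, against 2.55 in the library labelled male 5, 4.17 in male 8 and 1.92 in male 9. Its Cy3 signal in session 1 was 11.4 times that of the other sessions, and its Cy5 signal 2.2 times. With scan session as a block the difference of rps28 from males 8 and 9 was -0.98 (adjusted p = 0.0442, limma), so it passed in that fit only through fish of session 1. In that fit 3 members passed, against 20.2% of all tested probes, the others being rpl7l1 with 2.23 and rps8b with -1.37.

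The Cy3 signal of session 1 was over 3 times that of the other sessions in 9 members, against 25.4% of all tested probes. After rps28 and rplp1 these were rps10 with 4.78, rpl28 with 4.58, rpl14 with 3.83, rps8b with 3.74, rpl10a with 3.65, rpl13 with 3.26 and rpl3 with 3.11. The median of this Cy3 ratio was 1.78 over the members and 1.74 over all tested probes. As log2 ratios, session 1 minus session 3 was below -1 for 2 members, rplp1 and rps28, against 3.28% of tested probes. It was above 1 for rpl38 with 1.69 and rpl9 with 1.03, against 9.16% of tested probes. Whether the reference was prepared anew between sessions was not tested.

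**Figure D4:**
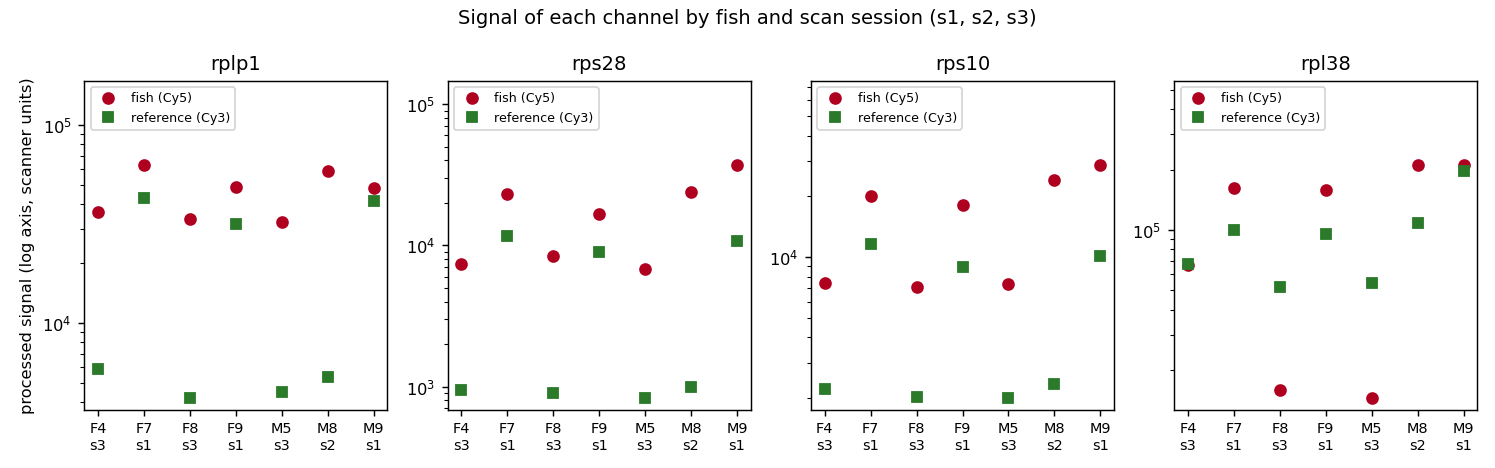
Processed signal in scanner units on a log axis for rplp1, rps28, rps10 and rpl38, by fish (F female, M male) and scan session (s1 to s3), red for the fish channel and green for the reference. The Cy3 points of rplp1 lie between 31604 and 42953 in session 1 and between 4190 and 5840 elsewhere, whereas rpl38 drops in the Cy5 channel of female 8 and of the library labelled male 5.

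Spread among siblings was measured as the SD of a gene's log2 ratios, pooled over both sexes after removing each sex's mean. Its median was 0.42 over the members and 0.35 over all tested probes, and 52 members were above that second value. Without the library labelled male 5 the medians were 0.39 and 0.27. The SD ranged from 0.16 for rps6 to 1.34 for rpl38. Above the 90th percentile of tested probes, at 0.94, were 4 members with all 7 fish, against a background of 10% by definition. They were rpl38 with 1.34, rplp1 with 1.32, rps28 with 1.09 and rps8b with 1.03, followed by rpl7l1 with 0.81 and rplp2 with 0.73. Of these, rplp1 and rps28 are the ones whose values split with the scan session. Without the library labelled male 5, 8 members were above the 90th percentile of that setting. The widest were then rplp1 with 1.44, rps28 with 1.20 and rpl38 with 0.97, while rps8b had 0.50 and rpl7l1 0.32. The listing of rps8b and rpl7l1 as widely spread therefore rested on that library.

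The direction of the members as a group depended on how the arrays were scaled. Loess centres each array's log ratios along brightness, and these probes hold a large share of its bright end: 56 of the 228 brightest probes were ribosomal protein probes. With all ribosomal protein probes at weight 0 in loess, the median log2 ratio was 1.14, 0.56, 0.83 and 1.09 in females 4, 7, 8 and 9. It was 0.63 in the library labelled male 5, 1.83 in male 8 and 1.71 in male 9. Males 8 and 9 were then above all females, while the 5 other fish lay close to their values with loess over all probes.

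Under that scaling 25 members passed against males 8 and 9, or 32.1%, beside 25.8% of all tested probes. Of these, 24 were lower in females, against a background of 12.7%, and rpl7l1 was higher, against a background of 13.1%. The median difference over members was -0.83. The lower ones included rplp2 with -2.30, rps2 with -1.36 and rpsa with -1.38 (adjusted p = 0.00981, 0.00982 and 0.0248, limma). The steady gene rps6 also passed, with -0.51 (adjusted p = 0.0453), where loess over all probes gave 0.07.

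With other scalings the members' median was above 0 or close to that of loess over all probes. With each array only centred on its median, the members' median difference was 0.68, beside 0.24 for all tested probes. There 0 members passed (limma), against 3.11% of tested probes. With the scanner software's processed signals it was 0.32, beside -0.33 for all tested probes, and 5 members passed against 41.6%. Read from the Cy5 channel alone it was -0.17, beside -0.37 for all tested probes, and 3 members passed against 55.3%. Centred on the members themselves, 4 passed against 21.3% of tested probes: rpl7l1 and rpl19 were higher and rplp2 and rps8b lower in females. A group-wide difference between the sexes thus had no settled direction here. The differences of rpl7l1 and rps8b kept their signs under all of these scalings and passed in all but median centring, where rpl7l1 had 3.54 (adjusted p = 0.0577) and rps8b -0.85 (adjusted p = 0.318).

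**Figure D5:**
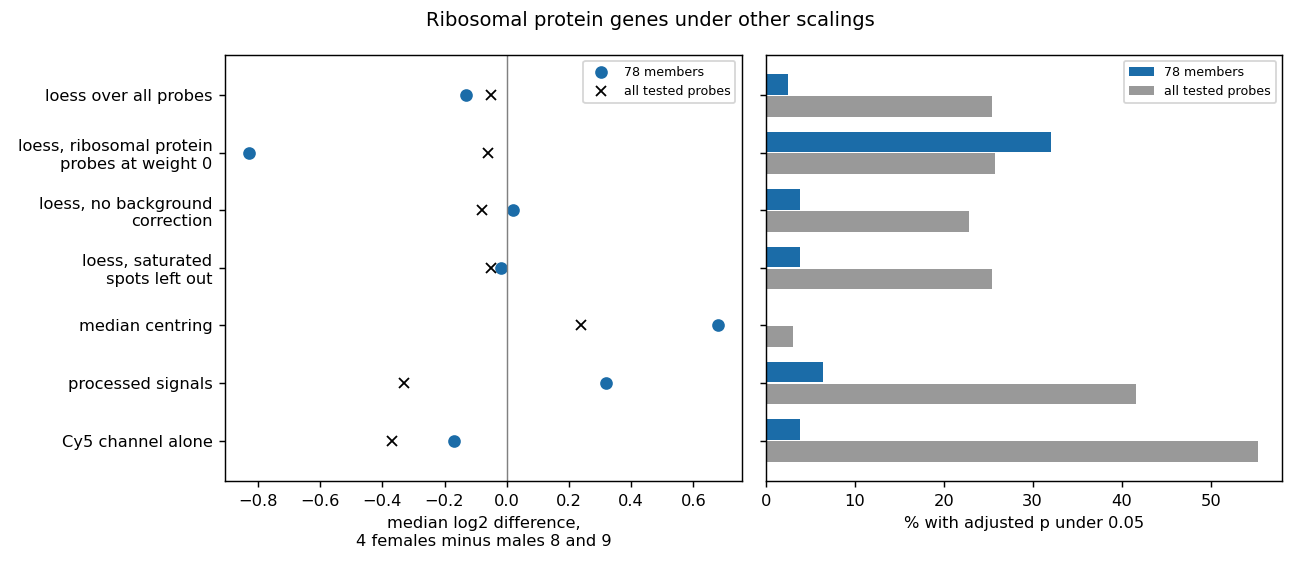
Left, median log2 difference of 4 females minus males 8 and 9 over the 78 members (blue circles) and all tested probes (black crosses) under 7 scalings. Right, percentage with an adjusted p under 0.05; the members' median runs from -0.83 with ribosomal protein probes at weight 0 in loess to 0.68 with median centring.

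Genes that build ribosomes were set beside the ribosomal proteins themselves. Of 38 tested ribosome biogenesis genes, 25 were higher in females than in males 8 and 9 and 0 were lower, with a median difference of 1.22. Of all tested probes 13.2% were higher, with a median of -0.05. Set against all 3 fish labelled male, 0 of the 38 passed. Fibrillarin (fbl), which methylates ribosomal RNA, had a difference of 2.28 ± 0.16 (SE; adjusted p = 0.00113, limma). The box H/ACA protein gene gar1 had 2.21, nucleolin (ncl) 2.01 and the RNA polymerase I subunit gene polr1e 1.86. With ribosomal protein probes at weight 0 in loess, 23 were higher, against 13.1% of all tested probes, and the median was 1.09. This list thus moved little where the ribosomal proteins moved much.

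Of the proteins that store 5S ribosomal RNA in frog oocytes, the genes gtf3ab and 42sp43 were higher in females than in males 8 and 9. The differences were 4.54 ± 0.48 and 2.78 ± 0.24 (SE; adjusted p = 0.00237 and 0.00155, limma). The library labelled male 5 had 1.29 for gtf3ab and -0.38 for 42sp43, both within the female range. It had been left out for its values of other oocyte genes, so these 2 calls are not separate from that choice. The third gene tested, gtf3aa, had 0.64 (adjusted p = 0.146). Of 58 mitochondrial ribosomal protein genes, 20 were higher and 0 lower, with a median difference of 0.60. The shares of all tested probes were 13.2% higher and 12.1% lower. Read from the Cy5 channel alone, 31 mitochondrial genes were higher and the median was 1.40. In that setting 55.3% of all tested probes passed, counted over both directions, and their median was -0.37. With loess over all probes, translation partners whose messengers also carry pyrimidine tracts had 3 higher of 23 and 0 lower, with a median of 0.02. The share higher was close to the 13.2% of all tested probes. With ribosomal protein probes at weight 0 in loess, 3 were higher and 4 lower, with a median of -0.51. In that fit 13.1% of all tested probes were higher and 12.7% lower. Set against all 3 fish labelled male, 0 genes of these lists passed. With loess over all probes the 3 higher ones were faub with 1.70, hnrnpa1b with 1.38 and eif4a1a with 0.90.

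The fau genes encode a ubiquitin-like protein fused to a small subunit ribosomal protein, and their symbols fall outside the naming rule. For faub the log2 ratios were -0.58, 0.07, -0.73 and 0.17 in females 4, 7, 8 and 9, against -0.47 in the library labelled male 5, -2.08 in male 8 and -1.85 in male 9. Males 8 and 9 were below all other fish, the order seen for rpl7l1. The copy faua had a difference of -0.24 (adjusted p = 0.51, limma).

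Markers of tissues moved with the same comparison. All 13 egg coat and oocyte genes tested and all 3 yolk genes were higher in females than in males 8 and 9, with median differences of 4.67 and 4.26. The library labelled male 5 had been left out for its values of these same egg coat and oocyte genes, so their count is not a separate result. Its yolk genes lay between 1.11 and 2.11, against -1.52 or below in males 8 and 9. The yolk count is thus not separate from that choice either. Of 5 testis genes 4 were lower, with a median of -1.52. Of 15 skeletal muscle genes 5 were lower, with a median of -1.66. Among liver genes 3 of 6 were lower, and among red blood cell genes 2 of 3. Of all tested probes 13.2% were higher and 12.1% lower, and against all 3 fish labelled male 0 genes of these lists passed. The part of these tissues in the values of rpl7l1, rps8b and the biogenesis genes was not tested.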

How the data were processed

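Per the file headers, spot values are the authors' output of Agilent Feature Extraction, version 10.5.1.1. The deposited files give each spot's intensity and local background in 2 channels. The deposited value table holds the log10 ratio of Cy5 over Cy3, which equalled the software's own ratio at 45220 spots per array, with a median of 0 in every column. From the median signals, background was corrected by normexp (offset 50) and each array normalized by loess (limma 3.58.1, R 4.3.3). Control spots (1417) and outlier spots (98) were left out, 2 of them member spots (rps29 in female 8 and male 9). A probe was tested if well above background in Cy5 on at least 3 of 7 arrays, which left 22705 probes. Tests used lmFit and eBayes with Benjamini-Hochberg adjustment at 0.05, two-sided, and were checked on simulated data. Paralogue pairs were tested with scipy 1.17.1.

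Of 43603 probes, 16568 (38%) could be named by matching RefSeq accessions to a GRCz12tu gene table. Coordinates and sequences are not used here. The headers place 6 arrays on 1 slide, with 3 positions each named for 2 arrays scanned in different sessions, so slide positions were not used. Members, lists and tests were chosen with earlier results of these data known. Named are all paralogues, the 3 members with the largest difference each way per subunit, the 6 with the largest and 3 with the smallest SD, and members of fixed functional sites; a few of these are not reported here. Fish numbers were checked as pairs: deviations correlated at -0.133 for fish 8 and 0.427 for fish 9. Female 9 and male 9 shared scan session 1, while female 8 and male 8 were in different sessions, so this check could not settle whether the numbers pair fish. The main tests treated the fish as unpaired. Alternatives covered scaling, background, filters, saturated spots, probe choice, scan session and each fish left out.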

Additional observations from a re-analysis of the deposited data

Results flagged for a closer look

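In each group of 4 females, 52 in all, the highest or lowest fish was compared with its nearest neighbour, and 2 stood apart. Chance alone gives about 1 in 20. The log2 ratio of the stalk gene rplp2b was 0.01 in female 7, while the 3 other females lay between 1.18 and 1.34. That spot was saturated in Cy5 on 2 arrays, female 7 among them, and the gene's other probe gave 1.12 in female 7. The log2 ratio of rpl5b minus that of rpl5a was 0.72 in female 8, while the 3 other females lay between -0.87 and -0.72.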

How the results depend on the processing

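For the named members, 1802 values under alternatives were computed. Of these 1468 kept direction and side of the threshold, 45 passed only under the alternative, 2 no longer passed (both under median centring, given above) and 1 turned round: rps6 against males 8 and 9, at -0.51 with ribosomal protein probes at weight 0 in loess. Another 286 changed sign with no call on either side. Of 77 values for paralogue pairs, 5 changed sign. Against all 3 fish labelled male, 0 members passed. The count was 4 with the replicate block by fish number, against 18% of tested probes. In that fit females 4 and 7 and the library labelled male 5 were each alone in a block and did not enter the difference. It rested on female 8 against male 8 and female 9 against male 9, so the result was the same without that library. With 1 fish left out the count was 2 without the library labelled male 5, against 25.4% of tested probes, and 0 without any other fish. The members' median difference from all 3, -0.01, was -0.44 with ribosomal protein probes at weight 0 and 0.79 with median centring. It was 0.33 with processed signals, 0.33 with the deposited table and 0.29 within session 3. The large minus small difference, -0.13, was 0.05 with the replicate block and 0.11 within session 1. Against males 8 and 9, 2 members passed, beside 25.4% of tested probes. For each alternative the share of tested probes is in brackets. The count was 4 with the replicate block (18%), 4 by gene means (25.4%) and 25 with ribosomal protein probes at weight 0 (25.8%). It was 0 with median centring (3.11%), 4 centred on the members (21.3%), 5 with processed signals (41.6%) and 4 with the deposited table (41.9%). It was 5 without female 7 (19.9%), 3 without female 8 (21.2%), 2 without female 4 (18.5%) and 2 without female 9 (19.1%). The median, -0.13, was -0.83, 0.68, 0.32 and 0.32 with ribosomal protein probes at weight 0, median centring, processed signals and the deposited table. Large minus small, -0.10, was 0.11 within session 1 and -0.21 to 0.24 with 1 fish left out, above 0 without male 8, female 7 or female 9. The median SD within sex, 0.42, was 0.86 with median centring. Causes were not tested. Fits within a session, or without male 8 or male 9, assume that the lone male varied like the females. Centring on members and Cy5 alone were chosen after seeing the data. For rpl31 and rps8b, signals near background limit the ratios. With only probes well above background on all 7 arrays kept, neither of these was tested. In that fit rpl7l1 and rplp2 passed against males 8 and 9, or 2.67% of the members tested, beside 38.3% of tested probes.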
